A study of Homo sapiens with 9 samples.

Results

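The collagen chain genes are the protein-coding genes whose symbols read COL, a type number, A and a chain number, and each encodes the alpha chain of a collagen. They were taken by symbol alone from the count table, which held 39 of them among 23727 genes. The naming rule uses no measured value, although the gene family was picked with earlier results of these data known. The 39 genes covered 25 collagen types. Another 5 chain genes (COL6A5, COL6A6, COL10A1, COL23A1 and COL26A1) are not analysed here. Of the 39, 35 had enough counts to be tested, and COL17A1, COL20A1, COL25A1 and COL28A1 did not.

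RNA was sequenced from LN229, an established human glioblastoma cell line. All cells grew in DMEM that was made without glucose, glutamine or phenol red and then given 17 mM glucose, 2 mM glutamine and 10% serum. There were 3 groups of 3 libraries: untreated cells at 0 h, cells given 500 µM sodium formate for 8 h, and cells given the same dose for 24 h. Formate is a small acid anion that donates carbon in folate metabolism. The untreated libraries were all taken at 0 h, so formate and time in culture cannot be told apart. The source label spells the line LN299 and the growth protocol LN229. The labels number the replicates 1 to 3 in each group and do not say whether they were separate cultures, so the p-values measure the spread between these libraries, which may be technical. In RNA from whole dishes, fewer cells of a kind and less RNA per cell cannot be told apart.

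The libraries held 22222298 to 25848242 counts. Replicate 1 stood apart in the untreated group: its counts differed from those of replicates 2 and 3 with a chi-square per degree of freedom of 56.1 and 58.7, against 8.51 between replicates 2 and 3. At 8 h the same 3 values were 21.8, 23.1 and 10.7, and at 24 h 13.7, 24.2 and 8.82. Markers of the line were present (vimentin VIM, NES, CD44 and SOX2), while the astrocyte marker GFAP had 52 counts in all 9 libraries together. CDKN2A and CDKN2B, whose locus is deleted in many glioblastomas, had 1 count each over the 9 libraries. MTAP, which was checked with them, had enough counts to be tested.

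A collagen molecule is a rope of 3 alpha chains wound into a triple helix. Some chains form a helix with copies of themselves, and others need partner chains from other genes, so the levels of partners relative to each other bear on which molecules a cell can make. Fibrillar collagens build fibrils, type IV builds the mesh of basement membranes, type VI builds beaded filaments at cell surfaces, and fibril-associated collagens (FACIT) coat fibrils. Healthy brain has little fibrillar collagen outside its vessels and meninges, and glioblastoma cells can lay down collagens of their own.

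Type IV chain genes lie head to head in pairs that share the DNA between their start sites. The stretch between COL4A1 and COL4A2 is shown whole because both genes were among the abundant ones and had lower values at 24 h. It is 126 bases between the RefSeq starts, at chr13:110307158-110307283 of GRCh38.p14, plus strand. Capitals in this and the following sequences mark a CCAAT box (CCAAT or ATTGG), a GC box (GGGCGG or CCGCCC) or a TATA box (TATAAA or TTTATA), searched on both strands. All sequences are from RefSeq, and GENCODE places some of these starts at other positions.
COL4A1 to COL4A2: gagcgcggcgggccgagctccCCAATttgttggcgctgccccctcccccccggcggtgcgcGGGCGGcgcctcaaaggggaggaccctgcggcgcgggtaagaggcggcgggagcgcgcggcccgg

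The other pairs, COL4A4 with COL4A3 and COL4A6 with COL4A5, have 418 and 379 bases between their starts. They are shown because 1 gene of each pair was higher at 24 h with the replicate block described below and its neighbour was not called. Each sequence is the 250 bases before the start of the named gene, read along that gene's strand: COL4A4 at chr2:227164206-227164455 (minus), COL4A3 at chr2:227164374-227164623 (plus), COL4A6 at chrX:108439459-108439708 (minus) and COL4A5 at chrX:108439588-108439837 (plus).
COL4A4: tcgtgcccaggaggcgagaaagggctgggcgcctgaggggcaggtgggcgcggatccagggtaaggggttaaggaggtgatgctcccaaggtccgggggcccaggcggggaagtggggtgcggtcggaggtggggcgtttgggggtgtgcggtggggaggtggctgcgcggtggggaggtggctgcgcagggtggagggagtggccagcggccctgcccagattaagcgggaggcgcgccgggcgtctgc
COL4A3: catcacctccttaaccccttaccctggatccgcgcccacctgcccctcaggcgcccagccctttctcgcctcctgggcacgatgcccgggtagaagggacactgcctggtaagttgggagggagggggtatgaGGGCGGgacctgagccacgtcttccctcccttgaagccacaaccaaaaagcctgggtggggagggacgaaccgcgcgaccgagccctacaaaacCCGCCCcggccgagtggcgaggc
COL4A6: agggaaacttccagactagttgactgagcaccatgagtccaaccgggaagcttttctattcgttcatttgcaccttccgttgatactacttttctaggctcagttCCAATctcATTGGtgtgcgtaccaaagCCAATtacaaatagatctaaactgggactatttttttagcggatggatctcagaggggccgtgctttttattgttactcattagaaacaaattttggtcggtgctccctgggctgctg
COL4A5: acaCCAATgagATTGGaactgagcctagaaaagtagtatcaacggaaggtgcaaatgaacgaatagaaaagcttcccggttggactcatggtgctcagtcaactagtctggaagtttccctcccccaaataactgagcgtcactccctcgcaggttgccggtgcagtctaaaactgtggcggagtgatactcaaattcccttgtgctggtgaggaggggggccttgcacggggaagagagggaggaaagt
The windows of COL4A4 and COL4A3 share 82 bases and hold no CCAAT box. Those of COL4A6 and COL4A5 share 121 bases, and these hold 2 CCAAT boxes, seen from both sides. The COL4A6 window shown has 1 more CCAAT box outside the shared bases. RefSeq gives COL4A6 a further start, whose window, not shown, holds 1 GC box and no CCAAT box. Which start these cells use was not tested.

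Windows of the same kind are given for COL6A2, COL6A3 and COL13A1, the first because it was the most abundant chain gene per length and the others because they fell at 24 h in the test of all genes. They lie at chr21:46097862-46098111 (plus), chr2:237414165-237414414 (minus) and chr10:69801656-69801905 (plus).
COL6A2: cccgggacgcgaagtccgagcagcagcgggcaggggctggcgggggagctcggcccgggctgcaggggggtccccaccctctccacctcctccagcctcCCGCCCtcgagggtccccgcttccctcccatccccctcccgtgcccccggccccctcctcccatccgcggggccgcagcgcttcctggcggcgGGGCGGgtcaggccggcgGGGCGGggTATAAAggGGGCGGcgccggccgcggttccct
COL6A3: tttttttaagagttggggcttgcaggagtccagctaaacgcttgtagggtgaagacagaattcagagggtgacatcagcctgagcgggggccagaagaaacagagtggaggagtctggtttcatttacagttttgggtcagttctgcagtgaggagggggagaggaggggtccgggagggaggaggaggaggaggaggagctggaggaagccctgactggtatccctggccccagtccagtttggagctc
COL13A1: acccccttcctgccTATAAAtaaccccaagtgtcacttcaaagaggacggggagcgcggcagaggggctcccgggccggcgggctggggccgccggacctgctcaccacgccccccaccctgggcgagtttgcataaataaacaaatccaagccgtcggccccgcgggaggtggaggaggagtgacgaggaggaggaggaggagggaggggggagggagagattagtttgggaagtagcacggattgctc
The COL6A2 window holds 4 GC boxes and a TATA box, the COL6A3 window none of these motifs and the COL13A1 window 1 TATA box. RefSeq windows were at hand for 28 of the 39 genes (38 windows). Of 35116 windows of all genes, 32.0% held a CCAAT box, 42.6% a GC box and 10.7% a TATA box, against 26.3%, 57.9% and 13.2% of the collagen windows. These are matches of letters, not binding sites.

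Collagen transcripts were a steady share of the counts, while the sums of some collagen classes differed at 24 h in values that were not tested. The 39 genes took 0.650% ± 0.0254 of all counts at 0 h, 0.681% ± 0.0548 at 8 h and 0.653% ± 0.0205 at 24 h (SD, n = 3 each). In CPM, which are counts relative to the library total after TMM scaling, their sum was 6636 ± 301 at 0 h, 6905 ± 763 at 8 h and 6334 ± 29.02 at 24 h. The highest sum, 7760 CPM, was in 8 h replicate 1.

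The type VI sum was 2667, 1590 and 1781 CPM in untreated replicates 1 to 3, 2638, 1581 and 1808 at 8 h, and 1393, 1096 and 1331 at 24 h. The fibrillar sum went the other way, with 1018, 1322 and 1388 CPM at 0 h, 1267, 1342 and 1357 at 8 h, and 1632, 1819 and 1640 at 24 h. The type IV sum was 1436, 1313 and 1368 CPM at 0 h, 1739, 1320 and 1379 at 8 h, and 1218, 1058 and 1116 at 24 h. In all 3 classes the 24 h libraries did not overlap the untreated ones, and no test was made on these sums. They were lower for types VI and IV and higher for the fibrillar class. Of the smaller classes, the transmembrane collagens (lower) and COL15A1 with COL18A1 (higher) did not overlap either, while the FACIT sums overlapped. Among single genes, 30.3% of all those tested did not overlap between 0 h and 24 h. The higher fibrillar sum was that of COL11A1 alone: without it the class summed to 436, 331 and 458 CPM at 0 h, 540, 341 and 445 at 8 h, and 343, 321 and 364 at 24 h.

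**Figure D1:**
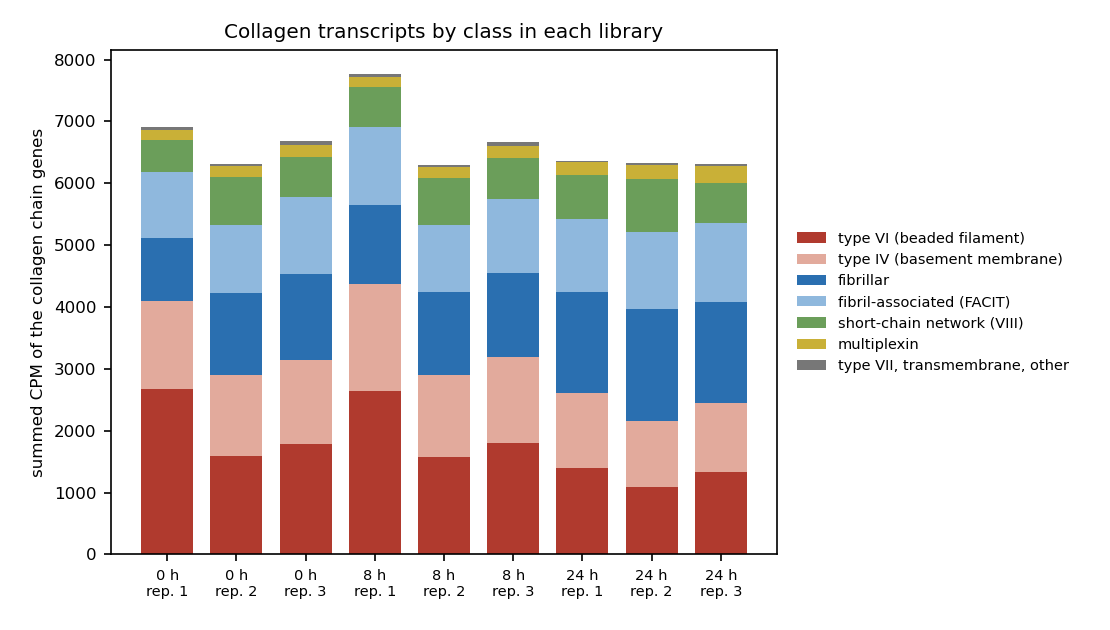
Summed CPM of the collagen chain genes in each of the 9 libraries (bars, from 0), split by class (colours). The type VI part is 1096 to 1393 CPM in the 24 h libraries and 1590 to 2667 CPM in the untreated ones, while the totals of the 24 h libraries are 6313 to 6367 CPM.

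A few genes made up most of this pool. COL11A1 gave 15.6% of all collagen counts, COL4A2 15.1%, COL6A2 13.7%, COL6A1 12.6%, COL8A1 10.6% and COL9A3 8.63%, together 76.1%. The first 10 genes by count, the others being COL12A1, COL4A1, COL5A1 and COL18A1, gave 92.1%. Per kilobase of merged exons (CPM per kb, mean of 9 libraries), the order was COL6A2 at 170, COL6A1 at 157, COL9A3 at 118, COL11A1 at 113, COL8A1 at 74.0 and COL4A2 at 51.9. In the untreated libraries the spread of COL6A2 (199 ± 72.0 CPM per kb, SD, n = 3) covered the mean of COL6A1 (174 ± 36.4), so this pair did not differ beyond its spread. COL11A1 (91.8 ± 24.3) was above COL8A1 (68.7 ± 13.8) in each untreated library, although the spreads of the 2 genes overlapped. COL9A3 (117 ± 6.66) was above COL11A1 in each untreated library. The order below the first place depended on the gene model. With the longest annotated transcript in place of merged exons, COL6A2 still led at 265 CPM per kb, and the same 6 genes came first. COL9A3 then stood ahead of COL6A1, and COL4A2, at 154 CPM per kb, ahead of COL11A1 and COL8A1.

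The chains that dominate scar and skin were scarce. COL1A1 had 0.435 CPM per kb, COL1A2 0.287 and COL3A1 0.0642. Of the 39 genes, 12 had a mean over 100 CPM and 8 a mean under 1 CPM. The 4 untested genes had 4 (COL20A1), 24 (COL17A1), 34 (COL28A1) and 38 counts (COL25A1) over all libraries. COL17A1, a transmembrane collagen of epithelial anchoring, had 5, 1 and 4 counts at 0 h, 10, 3 and 1 at 8 h and 0 in each 24 h library. With a floor of 3 counts set for the 24 h group, its pooled level was 3.39-fold lower than at 0 h and 4.84-fold lower than at 8 h. These folds take the 10 and 14 counts at 0 h and 8 h as exact, although the libraries of a group varied. They are therefore no lower bounds, and no test was made.

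**Figure D2:**
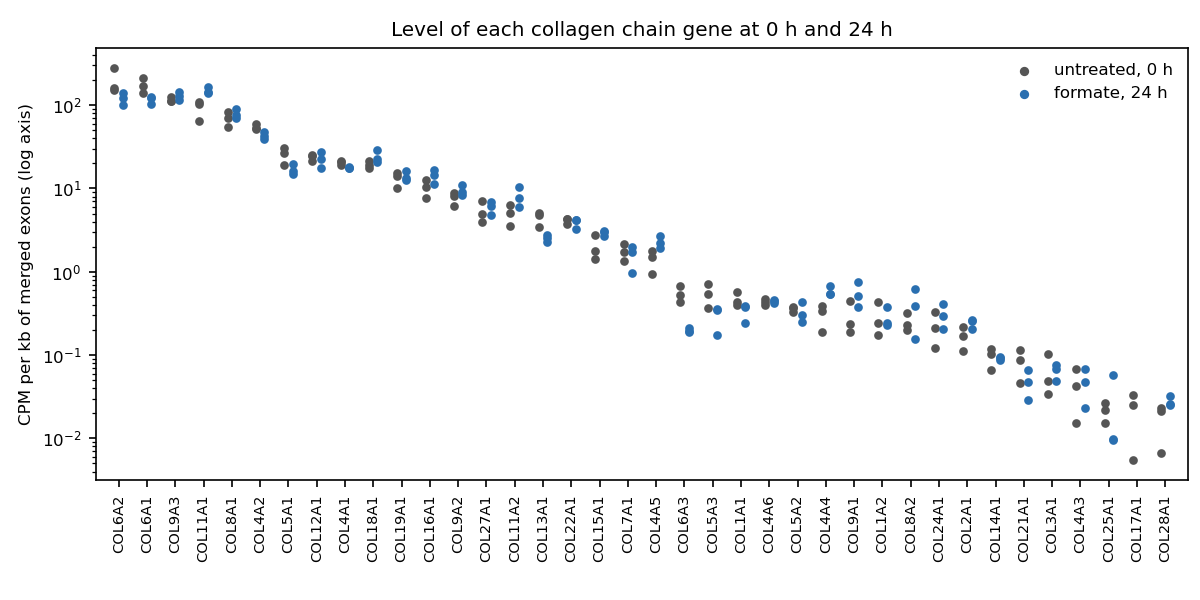
CPM per kb of merged exons (log axis) of the collagen chain genes in the 3 untreated (grey) and 3 24 h libraries (blue), 1 point a library, ordered by the untreated mean. Values of 0 cannot be drawn (COL17A1 at 24 h, and COL20A1 is left out), and in untreated cells COL6A3 sits at 0.544 CPM per kb, far under its partners COL6A1 at 174 and COL6A2 at 199.

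At 24 h against 0 h, 2 of the 35 tested collagen genes were called, COL6A3 and COL13A1, and both fell. The call was an adjusted p under 0.05 in the quasi-likelihood test of edgeR, adjusted by Benjamini-Hochberg over all 15273 genes tested. The members' share was 5.71%, against 4.25% of all genes. The lower calls alone were 5.71% against 1.77% of all genes, and the higher ones 0 against 2.47%. Unadjusted, 12 collagen genes and 4027 genes in all had p under 0.05.

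Libraries with the same replicate number deviated together between 0 h and 24 h, so a second fit held the replicate number as a block. With it 15 of the 35 were called (42.9%, against 24.1% of all genes), 8 higher (22.9%, against 12.6%) and 7 lower (20%, against 11.6%). The higher ones were COL4A4, COL4A5, COL9A1, COL11A1, COL11A2, COL15A1, COL16A1 and COL18A1. The lower ones were COL4A2, COL5A1, COL5A3, COL6A1, COL6A2, COL6A3 and COL13A1. The libraries of the groups did not overlap for 11 of 35 genes (31.4%), against 30.3% of all genes, with 3 higher (8.57%, against 15.9%) and 8 lower (22.9%, against 14.4%). The median log2 fold change was 0.06 over the members and 0.01 over all genes, and the median size of the change, its sign left aside, was 0.47 and 0.23.

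Without the block no gene of the table passed when 24 h replicate 2 or 3 was left out (0 of all genes in each fit). COL6A3 then read -1.45 without replicate 2 (adjusted p 0.0938) and -1.46 without replicate 3 (0.0979), and COL13A1 -0.73 (0.139) and -0.81 (0.143), close to the values with all libraries. COL13A1 also missed the threshold without untreated replicate 1 (0.0562) or 3 (0.0552). With the block, 10 collagen genes were called in each of the 12 fits that left out 1 library or 1 replicate number: COL4A4, COL4A5, COL5A1, COL6A1, COL6A2, COL6A3, COL11A1, COL11A2, COL13A1 and COL16A1. Each single fit called 1387 to 3991 of all genes. How many of all genes were called in each of the 12 was not counted, so this number has no background share.

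**Figure D3:**
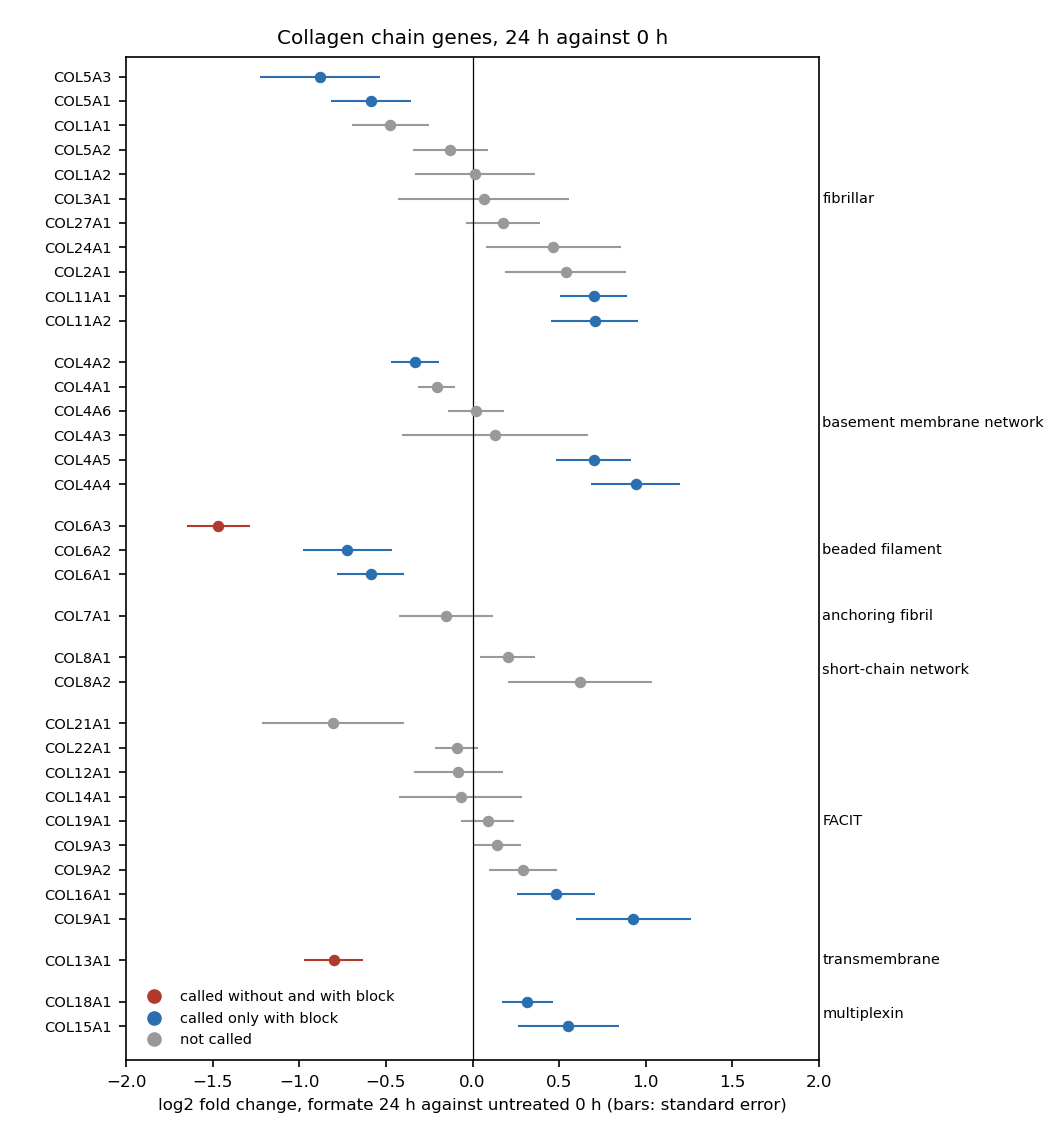
Log2 fold change of the 35 tested collagen chain genes at 24 h against 0 h from the fit without the block (points; bars are standard errors), grouped by class. COL6A3 at -1.47 and COL13A1 at -0.80 were called in both fits (red), 13 more genes with the replicate block only (blue), and 20 in neither (grey).

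Type VI collagen needs a chain from COL6A1, one from COL6A2 and a long one, usually from COL6A3, in each molecule. COL6A3 (ENSG00000163359, chr2:237324003-237414375 in GENCODE on GRCh38) had 8.44, 10.4 and 13.2 CPM at 0 h, 13.5, 10.8 and 12.9 at 8 h, and 4.10, 3.71 and 3.77 at 24 h. Every 24 h library was below every other library. Its log2 fold change at 24 h against 0 h was -1.47 (SE 0.18, 0.362-fold, adjusted p 0.0149 by edgeR), and its p ranked 4 among all genes.

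COL6A1 had 1141, 757 and 894 CPM at 0 h, 1238, 758 and 899.0 at 8 h, and 642, 551 and 667 at 24 h. COL6A2 had 1518, 823 and 873, then 1387, 812 and 896, then 747, 541 and 660. Both were lowest in the 24 h libraries and highest in replicate 1 at 0 and 8 h. COL6A1 read -0.59 (SE 0.19) and COL6A2 -0.72 (SE 0.26) on the log2 scale, which missed the threshold without the block (edgeR adjusted p 0.0975 and 0.117) and passed with it (-0.56 and -0.67, adjusted p 0.00347 and 0.00165).

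All 3 type VI genes were lower at 24 h with the block, COL6A3 the most. The ratio of COL6A3 to COL6A1, both per kb, was 0.00201, 0.00372 and 0.00403 in the untreated libraries and 0.00174, 0.00183 and 0.00154 at 24 h. Its mean log2 difference was -0.87 (exact permutation test, two-sided, p = 0.1, the smallest that 3 against 3 allows, and 0.15 adjusted over the 6 ratios computed, which were chosen with values known). The ratio of COL6A2 to COL6A1 was 1.12 ± 0.180 at 0 h and 1.04 ± 0.102 at 24 h (SD, n = 3 each, exact permutation p = 0.7).

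COL13A1 encodes a transmembrane collagen of cell junctions, which also acts at the nerve-muscle synapse. The gene (ENSG00000197467, chr10:69801867-69964275) had 29.7, 20.1 and 27.9 CPM at 0 h, 26.3, 20.9 and 29.7 at 8 h, and 16.4, 13.3 and 14.8 at 24 h. The 24 h values were below all others. Its log2 fold change at 24 h against 0 h was -0.80 (SE 0.17, 0.574-fold, edgeR adjusted p 0.0314).

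Type IV genes did not move as one. COL4A1 and COL4A2 encode the chains of the common basement membrane molecule, 2 of the first with 1 of the second. COL4A2 had 1137, 984 and 1019 CPM at 0 h, 1343, 994 and 1034 at 8 h, and 919, 762 and 814 at 24 h. Its log2 fold change was -0.33, called with the block (SE 0.08, edgeR adjusted p 0.0143) and not without it (SE 0.14, adjusted p 0.164). COL4A1 had 282, 303 and 319 CPM, then 375, 302 and 319, then 266, 260 and 257. Its log2 fold change of -0.21 was not called in either fit (edgeR adjusted p 0.238 and 0.129), although the 24 h libraries lay below the untreated ones for both genes. Their ratio per kb, COL4A2 to COL4A1, was 2.67 ± 0.358 at 0 h and 2.43 ± 0.204 at 24 h (SD, n = 3 each, exact permutation p = 0.4). The size of this ratio depends on the gene model. Merged exons span 19.3 kb for COL4A2 and 14.7 kb for COL4A1, and the longest transcripts 6.49 and 6.62 kb.

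COL4A3, COL4A4 and COL4A5 supply a separate type IV molecule, known from kidney, cochlea and eye. COL4A4 had 1.93, 3.39 and 3.89 CPM at 0 h, 1.95, 2.80 and 3.15 at 8 h, and 5.41, 5.48 and 6.88 at 24 h. COL4A5 had 11.0, 17.9 and 21.2, then 13.98, 17.9 and 18.8, then 23.2, 26.1 and 32.1. For both genes every 24 h library was above all others. The log2 fold changes at 24 h against 0 h were 0.94 (SE 0.26) and 0.70 (SE 0.21), not called without the block (edgeR adjusted p 0.0601 and 0.0823), and 0.97 and 0.72 with it (adjusted p 0.00266 and 0.00152).

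Their head-to-head neighbours were not called at 24 h against 0 h in either fit. COL4A3 had 0.141, 0.385 and 0.619 CPM at 0 h, 0.363, 0.131 and 0.213 at 8 h, and 0.211, 0.431 and 0.622 at 24 h, from 73 counts in all, which leaves a wide error (log2 0.13, SE 0.53, edgeR adjusted p 0.894). At 24 h against 8 h COL4A3 read 0.84 (SE 0.59, edgeR adjusted p 0.423), beside 1.17 for COL4A4. No test compared COL4A3 with COL4A4. COL4A6 is the partner of COL4A5 in another type IV molecule. It had 3.72, 4.43 and 4.03 CPM, then 4.40, 3.59 and 4.34, then 4.23, 3.97 and 4.19, with a log2 fold change of 0.02 (SE 0.16, edgeR adjusted p 0.940). The groups overlapped throughout for COL4A6.

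The ratio of COL4A5 to COL4A6, per kb, was 2.32, 3.16 and 4.12 at 0 h and 4.29, 5.14 and 6.003 at 24 h, a mean log2 difference of 0.71. COL4A5 to COL4A1 was 0.0681 ± 0.0175 at 0 h and 0.129 ± 0.0236 at 24 h (SD, n = 3 each), a mean log2 difference of 0.94. Neither ratio overlapped between the groups (exact permutation p = 0.1 for each, the smallest possible, and 0.15 adjusted over the 6 ratios). These pairs too were chosen with values known, so the ratios are no separate support for the change of COL4A5.

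Among the fibrillar genes, 4 of 11 were called with the block, 2 higher and 2 lower, against 24.1% of all genes. None was called without it, against 4.25% of all genes. COL11A1 (ENSG00000060718, chr1:102876467-103108872) encodes a chain of a minor fibrillar collagen that starts and thins fibrils. It had 582, 991 and 930 CPM at 0 h, 727, 1001 and 912 at 8 h, and 1289, 1498 and 1276 at 24 h. The 24 h values were the highest of all, and untreated replicate 1 was the lowest. Its partner COL11A2 had 23.9, 34.0 and 42.1, then 24.1, 34.2 and 42.2, then 40.8, 51.8 and 70.5 CPM. Here the 24 h and untreated libraries overlapped, with replicate 1 low and replicate 3 high at each time, and each number was higher at 24 h than at 0 h. The log2 fold changes were 0.70 (SE 0.19) and 0.71 (SE 0.25) without the block (edgeR adjusted p 0.0614 and 0.117) and 0.73 and 0.71 with it (adjusted p 0.00153 and 0.000253). GENCODE names a pseudogene of COL11A2, COL11A2P1. How alike their sequences are was not checked, and reads could be shared.

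Type V chains, which mix with type XI and I chains in fibrils, were lower with the block for 2 of 3 genes. COL5A1 had 342, 213 and 294 CPM at 0 h, 428, 227 and 287 at 8 h, and 221, 165 and 180 at 24 h. COL5A3 had 3.63, 2.50 and 4.78, then 3.59, 2.49 and 5.11, then 2.41, 1.16 and 2.32. COL5A1 overlapped between 0 h and 24 h by 1 library each, and COL5A3 did not overlap. Their log2 fold changes were -0.59 and -0.88 (edgeR adjusted p 0.142 and 0.143), and -0.57 and -0.89 with the block (0.00281 and 0.00524). COL5A2, the third chain, had 2.45, 2.81 and 2.74, then 2.996, 3.32 and 3.19, then 2.28, 3.19 and 1.87 CPM, and its value of -0.13 was not called (edgeR adjusted p 0.729).

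The ratio of COL11A1 to COL5A1, per kb, was 2.09, 5.73 and 3.89 at 0 h, 2.09, 5.43 and 3.92 at 8 h, and 7.18, 11.2 and 8.73 at 24 h. The 24 h ratios were above all others. The mean log2 difference from 0 h was 1.30 (exact permutation p = 0.1, the smallest possible, 0.15 adjusted). The pair was chosen with the values of both genes known, so the ratio is no separate support for either change.

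**Figure D4:**
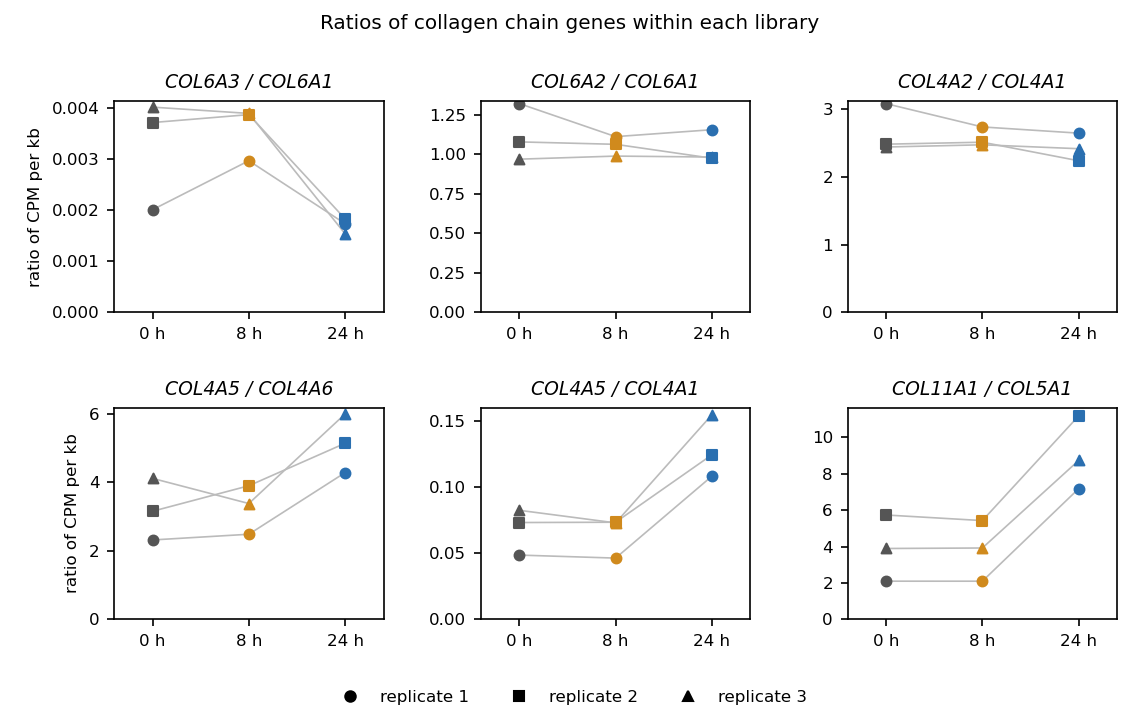
Ratios of CPM per kb between pairs of collagen chain genes within each library (points; shape gives the replicate number, lines join equal numbers) at 0, 8 and 24 h. The ratios of COL6A3 to COL6A1, COL4A5 to COL4A6, COL4A5 to COL4A1 and COL11A1 to COL5A1 did not overlap between 0 h and 24 h. Those of COL6A2 to COL6A1 and COL4A2 to COL4A1 did. The pairs were chosen with values known.

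COL1A1 had 4.29, 3.93 and 5.66 CPM at 0 h, 4.40, 4.77 and 5.40 at 8 h, and 2.37, 3.75 and 3.85 at 24 h. COL1A2, its partner in type I collagen, had 2.69, 1.96 and 4.82, then 3.45, 2.23 and 4.13, then 2.58, 2.67 and 4.27. COL1A1 was lower in each 24 h library than in any untreated one, but neither gene was called at 24 h against 0 h (log2 -0.47 and 0.01, edgeR adjusted p 0.2001 and 0.982). The other fibrillar genes, COL2A1, COL3A1, COL24A1 and COL27A1, were not called either.

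**Figure D5:**
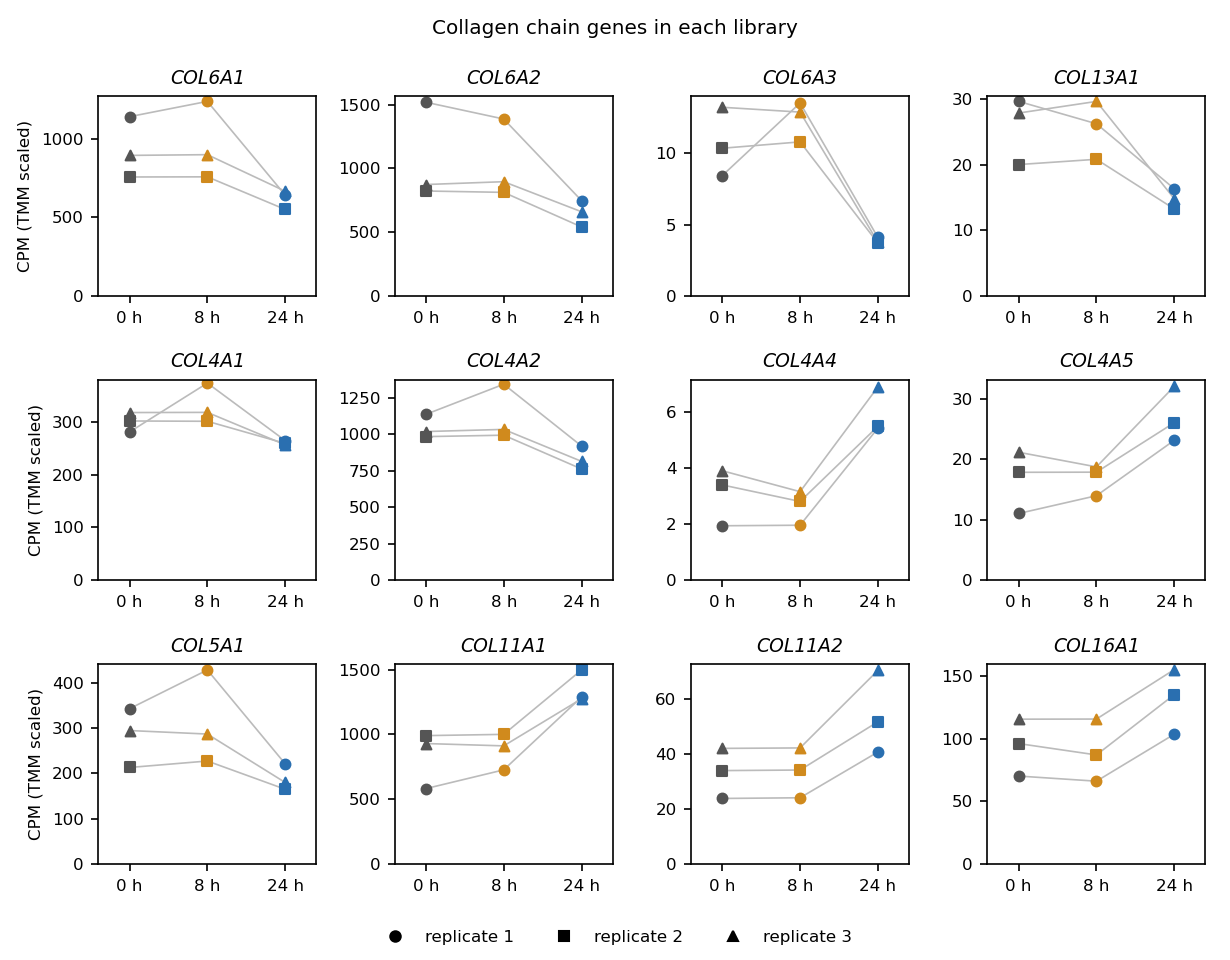
CPM in each library (points; shape gives the replicate number, lines join equal numbers, axes from 0) of 12 collagen chain genes at 0, 8 and 24 h. COL6A3 lies between 3.71 and 4.10 CPM at 24 h and at 8.44 or more before, and COL11A1 between 1276 and 1498 CPM at 24 h and at 1001 or less before.

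The fibril-associated genes held 2 calls with the block, both higher, among 9 tested, against 24.1% of all genes called with the block. COL9A1, COL9A2 and COL9A3 together form type IX, a cartilage collagen that decorates fibrils. COL9A1 had 3.21, 1.69 and 1.37 CPM at 0 h, 1.54, 1.14 and 1.15 at 8 h, and 2.75, 5.44 and 3.69 at 24 h. It was high in untreated replicate 1, where the 24 h value was lower, and its log2 fold change of 0.93 at 24 h against 0 h was called with the block only (edgeR adjusted p 0.0437, against 0.117), and with the block in 3 of the 12 fits with libraries left out. Without untreated replicate 1 it passed in the fit without the block (log2 1.34, edgeR adjusted p 0.0477). COL9A3 had 542, 550 and 602, then 441, 506 and 613, then 556, 620 and 692 CPM. COL9A2 had 25.8, 34.6 and 36.8, then 21.7, 33.6 and 37.5, then 34.9, 38.1 and 46.1. Both partners overlapped between groups and were not called at 24 h against 0 h, at log2 0.14 and 0.29 (edgeR adjusted p 0.520 and 0.356). Per kb, COL9A3 stood far above its partners, with 117 against 7.69 for COL9A2 and 0.289 for COL9A1 in untreated cells.

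COL16A1 encodes a fibril-associated chain found with cell-matrix contacts. It had 70.3, 96.3 and 116 CPM at 0 h, 66.2, 87.2 and 116 at 8 h, and 104, 135 and 155 at 24 h. Each number was higher at 24 h than at 0 h while the groups overlapped, and the log2 fold change of 0.48 was called with the block (0.49, SE 0.08, edgeR adjusted p 0.00152) and not without it (SE 0.22, adjusted p 0.195). COL12A1 had 591 CPM in 8 h replicate 1 and 223 to 341 CPM in the other libraries. COL12A1, COL14A1, COL19A1, COL21A1 and COL22A1 were not called.

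The multiplexins carry anti-angiogenic fragments at their ends, endostatin in the case of COL18A1. COL18A1 had 149, 165 and 182 CPM at 0 h, 136, 159 and 183 at 8 h, and 179, 193 and 246 at 24 h. COL15A1 had 18.6, 9.51 and 11.8, then 20.9, 9.93 and 10.4, then 19.9, 20.8 and 17.8. Both overlapped between 0 h and 24 h, at log2 0.32 and 0.55 without the block (edgeR adjusted p 0.195 and 0.240) and 0.31 and 0.61 with it (0.0164 and 0.0344). Each lost the call in 5 of the 12 fits with libraries left out. In GENCODE, 16.4% of the exonic length of COL18A1 overlaps SLC19A1 on the opposite strand, and the strand setting of the counts is not given in the sources used here, so reads of the pair cannot be told apart. No other member overlapped an opposite gene by 5% or more.

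COL8A1, of the short-chain network of vessels and cornea, had 513, 772 and 655 CPM at 0 h, 655, 771 and 663 at 8 h, and 724, 854 and 655 at 24 h. Its partner COL8A2 had 0.943, 1.502 and 1.06, then 0.499, 0.6998 and 0.766, then 0.719, 1.81 and 2.90. Neither was called at 24 h against 0 h (log2 0.20 and 0.62, edgeR adjusted p 0.424 and 0.351). COL7A1, the anchoring fibril chain, was at -0.15 (edgeR adjusted p 0.743).

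At 24 h against 8 h, 4 of the 35 collagen genes were called by edgeR (11.4%, against 4.56% of all genes). COL6A3 (log2 -1.68, SE 0.18, adjusted p 0.00869, p ranked 2 of all genes) and COL13A1 (-0.79, SE 0.17, 0.0320) fell (2 lower, 5.71%, against 1.72% of all genes). COL4A4 (1.17, SE 0.26, 0.0342) and COL9A1 (1.63, SE 0.35, 0.0309) rose (2 higher, 5.71%, against 2.84%). In each of the 4 genes the 24 h libraries did not overlap the 8 h ones. Non-overlap was found for 13 of 35 genes (37.1%), against 34.3% of all genes, 4 higher (11.4%, against 18.2%) and 9 lower (25.7%, against 16.2%). The labels state no pairing of 8 h with 24 h. Deviations of libraries with equal numbers correlated by 0.423, 0.0367 and 0.404 (mean 0.288). The mean for unequal numbers, -0.141, is no separate evidence, since deviations from a group mean cancel within the group. Number 2 correlated weakly, and the block is kept as an alternative here. With the replicate block, 20 were called (57.1%, against 20.5% of all genes), 11 higher (31.4%, against 11.8%) and 9 lower (25.7%, against 8.71%). This comparison and the previous one share the 24 h libraries. The number of calls moved with single libraries over the whole table. Without 8 h replicate 1, 24 h replicate 2 or 24 h replicate 3, 0 of all genes passed and so none of the 35, while COL6A3 read -1.63, -1.67 and -1.68. Without untreated replicate 1, 2545 genes passed, 13 of them collagen genes. Without 8 h replicate 2, COL6A3 and COL13A1 were called, and without 8 h replicate 3, COL6A3 alone.

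At 8 h against 0 h no collagen gene was called, and no gene of the table (0 of 35, and 0% of all genes, by edgeR, with and without the block). At an unadjusted p under 0.05 there were 1 collagen gene, COL21A1, and 79 genes in all without the block, 2 and 155 with it, and 1 and 66 by DESeq2, which called none. The groups did not overlap for 3 of the 35 (8.57%), against 3.31% of all genes: COL21A1 and COL8A2 were lower at 8 h (5.71%, against 1.89%) and COL5A2 was higher (2.86%, against 1.43%). COL21A1 had 0.330, 0.809 and 0.619 CPM at 0 h and 0.272, 0.219 and 0.213 at 8 h, from 82 counts over all libraries. Its log2 value of -1.33 had an adjusted p of 0.9999. The median size of the change was 0.07 log2 over the members and 0.08 over all genes.

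Genes that make, carry, trim, bind or break down collagen were read as 6 lists of 60 tested genes. At 24 h against 0 h, 1 of the 60 was called without the block (1.67%, against 4.25% of all genes) and 14 with it (23.3%, against 24.1%), so their share with the block was near that of all genes. Of 18 genes for modification and folding in the endoplasmic reticulum, none was called at 24 h against 0 h without the block and 3 with it. Of these, SERPINH1, the collagen chaperone, had 672 ± 48.5 CPM at 0 h and 821 ± 84.4 at 24 h, COLGALT2, which adds galactose to hydroxylysine, had 15.01 ± 1.71 and 21.3 ± 1.37, and P3H2, a prolyl 3-hydroxylase with type IV substrates, had 62.1 ± 13.3 and 46.5 ± 2.07 (SD, n = 3 each). P4HA1, a prolyl 4-hydroxylase subunit, was not called (79.9 ± 9.95 and 95.4 ± 7.86). The list's median log2 fold change was 0.00, against 0.01 over all genes. None of 9 export genes, named CREB3L1, SAR1B, SEC23A and MIA3 by their p, was called in either fit (median -0.11).

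Of 10 tested genes for processing and fibril assembly, none was called without the block and 5 with it, against the same 24.1% of all genes (median 0.12). The small proteoglycans LUM (36.2 ± 7.29 CPM at 0 h, 60.5 ± 9.69 at 24 h), DCN (3.37 ± 0.577 and 5.49 ± 0.722) and BGN (56.8 ± 4.87 and 74.7 ± 11.3) were higher, and fibronectin FN1 (5260 ± 664 and 3609 ± 470) was lower, as was the procollagen C-proteinase BMP1. Among 5 tested crosslinking enzymes (median -0.05) the peroxidase PXDN, which crosslinks type IV collagen, was called with the block only (313 ± 59.1 and 394 ± 15.9 CPM), while LOXL1, LOXL2 and LOXL3 were not called. Among 11 receptors (median -0.01), ANTXR1, a receptor that binds types I and VI, rose from 68.8 ± 4.24 to 91.6 ± 2.95 CPM (log2 0.41, edgeR adjusted p 0.0311), and MRC2, a collagen uptake receptor, and ITGA1 were called with the block only. Of 7 tested degradation genes (median -0.01), the gelatinase MMP2 (1252 ± 113 and 1640 ± 110 CPM) was higher and the cathepsin CTSL (72.3 ± 12.1 and 53.6 ± 5.92) lower with the block, and neither without it (SD, n = 3 each).

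Markers of other cells were checked beside these values. The summed level of 9 fibroblast and pericyte markers was 80.5 to 103 CPM at 0 h, 76.0 to 103 at 8 h and 116 to 150 at 24 h. Of 7 tested, 0 were called without the block and 4 with it (PDGFRA, PDGFRB, DCN and LUM, all higher), against 24.1% of all genes with the block. Of the same 9 markers, THY1 and POSTN had 24 and 67 counts in all libraries. DCN and LUM are in the assembly list too, and FAP in the degradation list. The endothelial markers summed to at most 1.87 CPM and the immune ones to at most 0.354 CPM in any library. VWF was called higher at 24 h, from 0.424 ± 0.131 to 1.28 ± 0.274 CPM (SD, n = 3 each). The epithelial sum, nearly all KRT18, was 140 to 203 CPM at 0 h, 143 to 154 at 8 h and 109 to 126 at 24 h, with EPCAM at 4 counts. The glioma and astrocyte sum was 6193 to 8549, 6335 to 7213 and 5285 to 6115 CPM, and of 6 tested S100B was called without the block, higher at 24 h (130 ± 46.2 and 340 ± 53.6 CPM). With the block 4 of the 6 were called, against 24.1% of all genes, S100B and OLIG2 higher and VIM and CD44 lower. The part of these markers in the collagen results was not tested.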

How the data were processed

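Per the labels' protocols, the RNA of each dish was used at a RIN (integrity number) over 9, and stranded mRNA libraries were made. The authors deposited 1 table of raw whole-number counts per Ensembl gene for the 9 libraries. The submitters' processing notes name GRCh38, bcl2fastq 2.20.0.422 and STAR 2.7.4a, with no role. The counting program, the annotation release and the strand setting are not given in the sources used here.

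Ensembl identifiers were matched to symbols (23619 of 23727 genes) and gene models were those of GENCODE release 29. Counts were tested with edgeR 4.0.16 in R 4.3.3 (TMM, filterByExpr, quasi-likelihood test over all 9 libraries, 15273 genes, Benjamini-Hochberg over all of them, threshold 0.05). The script was checked on simulated counts. CPM are counts relative to the library total after TMM scaling. The alternatives were other scalings and filters, DESeq2 1.42.0, a fit on the compared groups only and leaving out libraries.

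Replicate numbers come from the titles. Deviations from the group means correlated between equal numbers by 0.367, 0.164 and 0.251 (0 h and 24 h) and 0.476, 0.432 and 0.414 (0 h and 8 h), so block values stand beside those comparisons. For 8 h and 24 h they were 0.423, 0.0367 and 0.404, and the block is an alternative there.

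The members and lists were chosen with earlier results of these data known. Values per library are given for each gene called in any comparison, with or without the block, for the 6 highest per kb and for their partner chains, and up to 4 genes of each list with the smallest p. BMP1 was added to the latter after its values were seen.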

Additional observations from a re-analysis of the deposited data

Results flagged for a closer look

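In 4 collagen chain genes the effect of 24 h differed from that of 8 h by edgeR's test over all genes. These are 11.4% of the 35 tested, against 4.56% of all genes. Both effects are taken against the same untreated libraries, which cancel. The test is therefore that of 24 h against 8 h given above. The log2 difference was -1.68 for COL6A3 (adjusted p 0.00869), -0.79 for COL13A1 (0.0320), 1.17 for COL4A4 (0.0342) and 1.63 for COL9A1 (0.0309). Each was lower, or higher, in 3 of 3 libraries at 24 h than in any at 8 h. Such non-overlap was found for 34.3% of all genes. Without the block, no gene passed when 8 h replicate 1, 24 h replicate 2 or 24 h replicate 3 was left out. Groups of 3 libraries were not searched for outlying values.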

How the results depend on the processing

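Where a fit was changed, no called collagen gene changed direction. With the replicate block, 15 collagen chain genes (3687 genes in all) were called at 24 h against 0 h and 20 (3130) at 24 h against 8 h; the block changed no call at 8 h against 0 h. DESeq2's Wald test called 7 (1594) and 11 (1447), and a fit on the compared groups only called 1 (124) and 10 (1787). Other scalings and count filters called the same 2 and 4 collagen genes. Leaving out 1 library or 1 replicate number gave 0 to 14 collagen genes (0 to 2616 genes) at 24 h against 0 h and 0 to 15 (0 to 3072) at 24 h against 8 h without the block. With the block it gave 10 to 18 (1387 to 3991) and 10 to 21 (1179 to 5432). The 0 at 24 h against 0 h came without 24 h replicate 2 or 3, or without all libraries numbered 2 or 3, and the 14 without those numbered 1. At 8 h against 0 h every setting gave 0. A fit with 1 number left out has 2 libraries a group. The level of COL6A2 read 265 CPM per kb over its longest transcript. Genes under 1 CPM, such as COL4A3, COL3A1 and COL21A1, had standard errors of 0.41 to 0.53 at 24 h against 0 h, so small changes in them could not be detected at this depth.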

Other observations

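Genes with collagen names that encode no collagen chain in the list were read too. The pseudogene COL6A4P1 had 0.362 ± 0.159 CPM at 0 h, 0.420 ± 0.185 at 8 h and 0.411 ± 0.138 at 24 h (SD, n = 3 each) and was not called in any comparison. COL6A2-DT, a transcript that starts beside COL6A2 on the opposite strand, had 19 counts over all libraries and was not tested.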
